A study of Mus musculus with 14 samples.

Results

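The comparison described here sets OCP1 against OCP3, opposite corners of a 4-way sort of osteochondroprogenitor cells in which both sorting markers change at once. OCP1 cells were CD9+CD73+Thy1- and OCP3 cells were CD9+CD73-Thy1+. The groups were taken from the sort labels, and they hold 7 of the 14 arrays of the series: 3 OCP1 arrays and 4 OCP3 arrays. The other 7 arrays are OCP2 (CD9+CD73-Thy1-, 3 arrays) and OCP4 (CD9+CD73+Thy1+, 4 arrays), which each share 1 marker state with OCP1 and 1 with OCP3.

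Cells of all 4 groups were isolated from limbs of C57BL/6 embryos of the mouse, taken at embryonic day 16.5, with no genotype or treatment difference between them. Tissue was taken apart with collagenase and dispase, red cells were lysed, and the rest was stained with antibodies and sorted by flow cytometry. Total RNA was measured on Mouse Gene ST microarrays, which report the brightness of a set of short probes for each gene. The labels do not say whether the replicates came from separate litters, so the p-values cover only how far these samples differ from each other, possibly for technical reasons, and the small number of arrays limits their precision.

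CD73, encoded by Nt5e, makes adenosine from AMP outside the cell, and Thy1 is a surface glycoprotein carried by many stromal cells. Limb skeletal elements of this stage are cartilage models in which chondrocytes divide, enlarge into hypertrophic chondrocytes that make type X collagen, and give way to bone laid down by osteoblasts. Blood vessels that enter the tissue carry a coat of mural cells, the pericytes and smooth muscle cells, which contract and signal to the endothelium.

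Levels are given as log2 intensity, the log2 of the deposited value, so that a difference of 1 is a doubling. A level is compared between groups for 1 gene at a time and not between genes, because probe sets differ in brightness. A gene was called changed at an adjusted p under 0.05 in the limma fit over 21734 genes. Of these genes, 5309 (24.4%) were called, 2596 (11.9%) higher and 2713 (12.5%) lower in OCP1. The median log2 difference over all genes was 0.03. At least a 2-fold difference was reached by 175 called genes on the higher side (0.805%) and 293 on the lower side (1.35%), and 33 and 70 of them passed 4-fold. Every OCP1 array lay above every OCP3 array for 16% of all genes, and below for 15.8%.

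The 3 OCP1 arrays correlated with each other at 0.995 to 0.9955 over all probe sets, the 4 OCP3 arrays at 0.9893 to 0.9956, and OCP1 with OCP3 arrays at 0.9846 to 0.9894. Array medians ran from 328.1 to 346.8 on the linear scale over the 14 arrays. One array stood apart for a group of genes: OCP1 replicate 2 was higher than the other OCP1 arrays in several contractile smooth muscle genes. Acta2, Actg2, Myh11, Tagln, Cnn1 and the count of lower smooth muscle genes are given with and without that array. Other smooth muscle values, such as the list median, use all arrays.

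**Figure D1:**
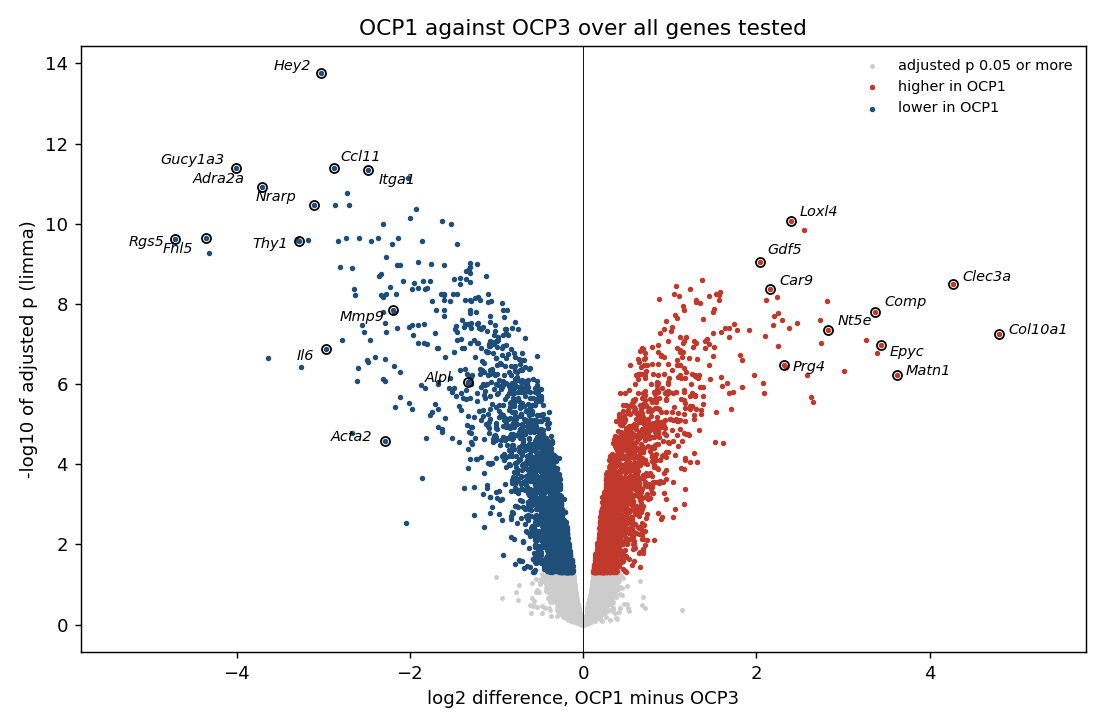
Each point is 1 gene, with the log2 difference of OCP1 minus OCP3 on the horizontal axis and the -log10 of the limma adjusted p on the vertical axis. Red genes were called higher in OCP1 and blue genes lower, and grey genes were not called. Col10a1 lies farthest to the right at 4.80 and Rgs5 farthest to the left at -4.71.

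The sort marker genes followed the sort labels. Nt5e read 12.22, 12.17 and 12.47 in the OCP1 arrays, against 9.88, 8.91, 9.72 and 9.31 in the OCP3 arrays, 7.12-fold higher in OCP1 (log2 difference 2.83, SE 0.18, adjusted p = 4.47e-08). Thy1 read 9.42, 9.20 and 9.35 in OCP1, against 12.44, 12.70, 12.68 and 12.60 in OCP3, and fell by 3.28 on the log2 scale (SE 0.13, adjusted p = 2.62e-10). Because these genes encode the proteins sorted on, their differences check the labels and are no separate result. Cd9, which all groups were gated on, was still 1.45-fold higher in OCP1 (adjusted p = 3.62e-04).

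**Figure D2:**
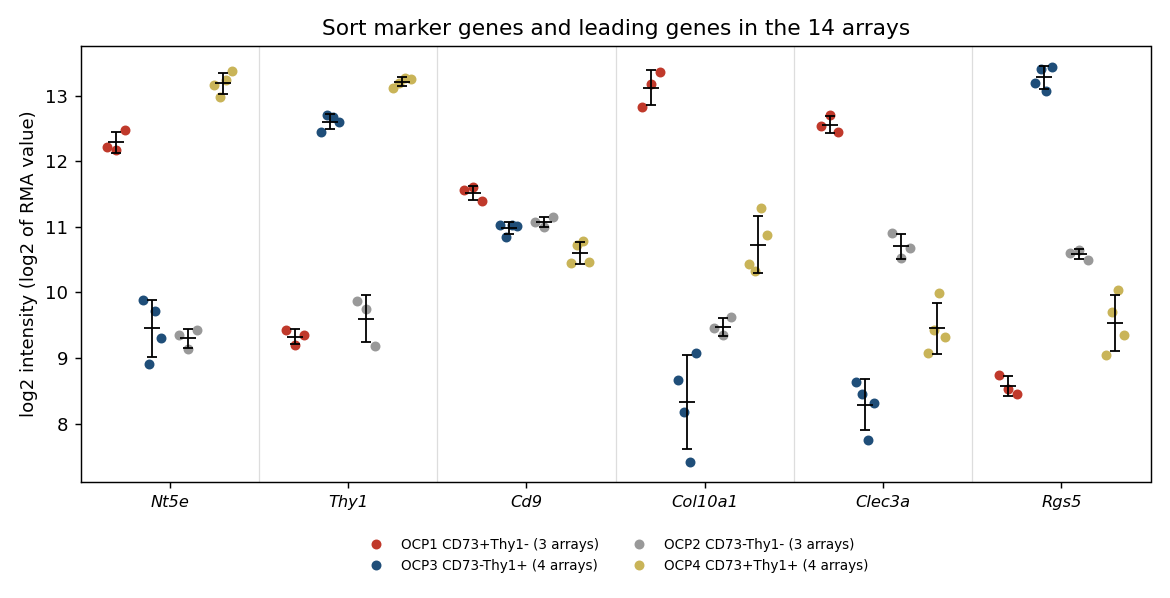
Points are the log2 intensities of single arrays for the 3 sort marker genes and the 3 leading genes, with OCP1 left of OCP3 and the other sorted groups to their right; bars give the mean and SD. Col10a1 lies between 12.83 and 13.36 in OCP1 and between 7.41 and 9.08 in OCP3, and Rgs5 has the opposite order.

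Cartilage genes rose together in OCP1. Of 32 listed cartilage genes measured, 30 were higher in OCP1, 0 were lower and 24 of the 30 reached a 2-fold difference, against a background of 11.9% of all genes higher. The list's median log2 difference was 2.02. In all 30 called genes every OCP1 array lay above every OCP3 array. The 2 genes that were not called were Cilp2 (log2 difference 0.08, adjusted p = 0.432) and Otor (0.06, adjusted p = 0.701). The intensities of the list summed to between 155874 and 182805 in OCP1 arrays and to between 37942 and 46853 in OCP3 arrays. In samples of sorted cells measured in bulk, fewer cells of a type and less RNA of that type per cell cannot be told apart.

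Secreted and matrix adaptor proteins led the list. Clec3a, a cartilage lectin, read 12.53, 12.70 and 12.45 in OCP1, against 8.64, 8.45, 7.75 and 8.32 in OCP3. The groups were far apart, 19.3-fold (log2 difference 4.27, SE 0.21, adjusted p = 3.21e-09). Matn1, the matrilin of resting and proliferating cartilage, read 13.38, 13.80 and 13.32 in OCP1, against 10.55, 9.93, 9.12 and 9.96 in OCP3. OCP3 replicate 1 was the highest and replicate 3 the lowest of the OCP3 arrays for Matn1, yet no OCP3 array came near OCP1, and the difference was 12.3-fold (adjusted p = 5.98e-07). Comp, which bridges collagen fibrils, was 10.3-fold higher, Matn3 9.61-fold and Scrg1 10.5-fold.

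The proteoglycans and link proteins of the list moved the same way, all 6 of them higher. Epyc, a small leucine-rich proteoglycan of growth plate cartilage, read 12.01, 12.25 and 11.53 in OCP1 and 9.03, 8.34, 8.32 and 8.25 in OCP3, a 10.9-fold difference. A dimmer second probe set of Epyc differed far less (log2 difference 0.27). Hapln1, the link protein that fixes aggrecan to hyaluronan, was 6.73-fold higher and Acan, which encodes aggrecan, 3.58-fold higher. Lect1 (now Cnmd), which encodes the cartilage angiogenesis inhibitor chondromodulin, was 8.05-fold higher, with 13.63, 13.89 and 13.60 in OCP1 against 11.20, 10.65, 10.18 and 10.73 in OCP3.

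Among the 7 cartilage collagens all were higher, led by Col9a1 at 6.70-fold, Col2a1 at 4.94-fold and Col9a3 at 4.61-fold. Col2a1, the main collagen of cartilage, read 13.47, 13.69 and 13.51 in OCP1 and 11.55, 11.14, 11.07 and 11.24 in OCP3. The 6 cartilage transcription factors were all higher too. Sox9, which drives the chondrocyte programme, read 13.04, 13.11 and 12.89 in OCP1 and 11.35, 11.19, 11.19 and 11.21 in OCP3, a 3.42-fold difference (adjusted p = 4.49e-08). Its partners Sox5 (2.09-fold) and Sox6 (2.05-fold) and the late chondrocyte factor Foxa3 (5.56-fold) were also higher.

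The promoter window of Matn1 is shown because it holds the RUNX core, a motif bound by the Runx factors of cartilage and bone. Sequences are from RefSeq (GRCm38.p6), 250 bases before to 50 after the gene start, and Matn1 lies at chr4:130944135-130944434 on the plus strand, with TGTGGT in capitals 134 bases before the start.
Matn1: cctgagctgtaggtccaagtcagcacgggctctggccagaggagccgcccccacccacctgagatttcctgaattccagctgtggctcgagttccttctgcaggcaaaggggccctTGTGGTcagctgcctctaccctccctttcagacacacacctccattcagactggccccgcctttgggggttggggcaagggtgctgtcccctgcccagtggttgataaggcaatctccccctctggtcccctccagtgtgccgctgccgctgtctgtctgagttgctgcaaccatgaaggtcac
The letters TGTGGT, on either strand, occurred in the windows of 7 of the 26 cartilage genes with a window (26.9%), in 16.4% of the genes higher in OCP1 by 2-fold or more and in 16.4% of all tested genes with a window. A match describes the letters and is not a shown site. The windows of Col10a1, Ihh and Matn3 were searched for the same letters and held none.

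Hypertrophic cartilage genes were divided. Of 12 measured, 7 were higher and 2 lower in OCP1 (median log2 difference 0.70). Col10a1, type X collagen of hypertrophic cartilage, had the largest difference of any gene: it read 12.83, 13.18 and 13.36 in OCP1, against 8.66, 8.17, 7.41 and 9.08 in OCP3. The OCP3 arrays spread over more than a log2 unit but stayed far below OCP1, and the difference was 27.8-fold (log2 difference 4.80, SE 0.31, adjusted p = 5.62e-08). Panx3, a channel of prehypertrophic cells, was 3.20-fold higher, Ihh, the hedgehog ligand of the same zone, 3.11-fold, and Fgfr3, the receptor that restrains chondrocyte division, 3.01-fold.

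Some other genes of the hypertrophic list did not follow Col10a1. Mmp13, the collagenase of terminal hypertrophic cells and osteoblasts, read 11.53, 11.25 and 11.33 in OCP1 and 11.46, 11.34, 11.64 and 11.29 in OCP3. The groups overlapped (log2 difference -0.06, 95% interval -0.39 to 0.27), and both lay above the means of OCP2 (8.54) and OCP4 (10.08). Alpl, the phosphatase needed for mineral deposition, was 2.52-fold lower in OCP1, with 11.57, 11.56 and 11.67 in OCP1 against 12.95, 12.99, 12.91 and 12.88 in OCP3 (adjusted p = 9.02e-07). Mef2c, a transcription factor of hypertrophy, was 1.45-fold lower. Pthlh, whose protein delays hypertrophy, missed the threshold (log2 difference -0.25, adjusted p = 0.0528), and passed it in 4 of the other settings tried (0.0103 to 0.0388).

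Osteoblast genes parted by role: factors that specify the lineage were mostly lower in OCP1. The listed matrix and mineral genes were higher or not called, apart from Alpl, which was lower and is counted with the hypertrophic genes. Which cell types of the sorted samples carried these differences was not tested. Of 25 osteoblast genes measured, 10 were higher and 6 lower, and the median log2 difference was 0.20. Among the 7 transcription factors, 5 were lower and 1 higher. Sp7, which encodes osterix, read 9.79, 9.92 and 9.84 in OCP1, against 10.65, 10.75, 10.30 and 10.64 in OCP3. All OCP1 arrays lay below all OCP3 arrays, 1.66-fold (adjusted p = 7.29e-05). Runx2, the master factor of bone, was 1.53-fold lower in its brightest probe set (adjusted p = 1.32e-04), while a dimmer probe set gave 0.08 on the log2 scale and was not called, and the mean of both gave -0.27 (adjusted p = 0.0707).

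The homeobox factors Dlx5 and Dlx6 were 2.16-fold and 2.48-fold lower. Dlx3 was the 1 factor higher in OCP1, by 1.39-fold. Tnfsf11, which encodes the osteoclast-inducing ligand RANKL, was 1.39-fold lower (adjusted p = 0.00552), and Tnfrsf11b, its decoy receptor, was not called (log2 difference 0.26, adjusted p = 0.198).

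In OCP1, 5 of 9 bone matrix genes were higher and 0 lower, and of 5 mineral enzymes and carriers 4 were higher and 0 lower, Alpl being counted with the hypertrophic genes. Spp1, osteopontin, read 12.60, 12.67 and 12.57 in OCP1, against 11.47, 11.64, 11.28 and 11.53 in OCP3, 2.19-fold (adjusted p = 1.23e-04). The matrix vesicle phosphatase Phospho1 was 2.11-fold higher, the sphingomyelinase Smpd3 2.53-fold and Enpp1, which makes the mineral inhibitor pyrophosphate, 2.39-fold. Ibsp, bone sialoprotein, was 1.82-fold higher, Phex, a phosphate regulator of osteoblasts, 1.73-fold and Dmp1, a matrix protein of osteocytes, 1.86-fold. Type I collagen differed little: Col1a1 was 1.19-fold and Col1a2 1.20-fold higher. Bglap, osteocalcin, was not called (log2 difference -0.02, adjusted p = 0.93).

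Joint and tendon genes were on the OCP1 side. Of 12 joint genes 9 were higher and 0 lower (median 0.63), and of 9 tendon and ligament genes 8 were higher and 0 lower (median 0.88). Prg4, the lubricin of the joint surface, read 11.22, 10.95 and 11.39 in OCP1, against 9.02, 8.66, 8.84 and 8.96 in OCP3, 4.99-fold (adjusted p = 3.39e-07). Gdf5, the growth factor that marks the joint interzone, was 4.12-fold higher, with 9.76, 9.87 and 10.03 in OCP1 against 7.86, 7.98, 7.74 and 7.78 in OCP3, and its dimmer second probe set gave a log2 difference of 0.82, against 2.04. Erg, a factor of articular chondrocytes that endothelial cells also express, was 2.52-fold higher.

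Among the tendon genes Kera, a corneal and tendon proteoglycan, was 3.07-fold higher, with 12.68, 13.00 and 12.96 in OCP1 against a wide range of 11.84, 10.67, 11.34 and 11.20 in OCP3, and the tendon factors Mkx and Scx were 2.31-fold and 1.84-fold higher. Tnmd, tenomodulin, was 1.90-fold higher. Genes of loose fibrous tissue were split more evenly, 8 higher and 2 lower of 19, and none reached 2-fold.

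**Figure D3:**
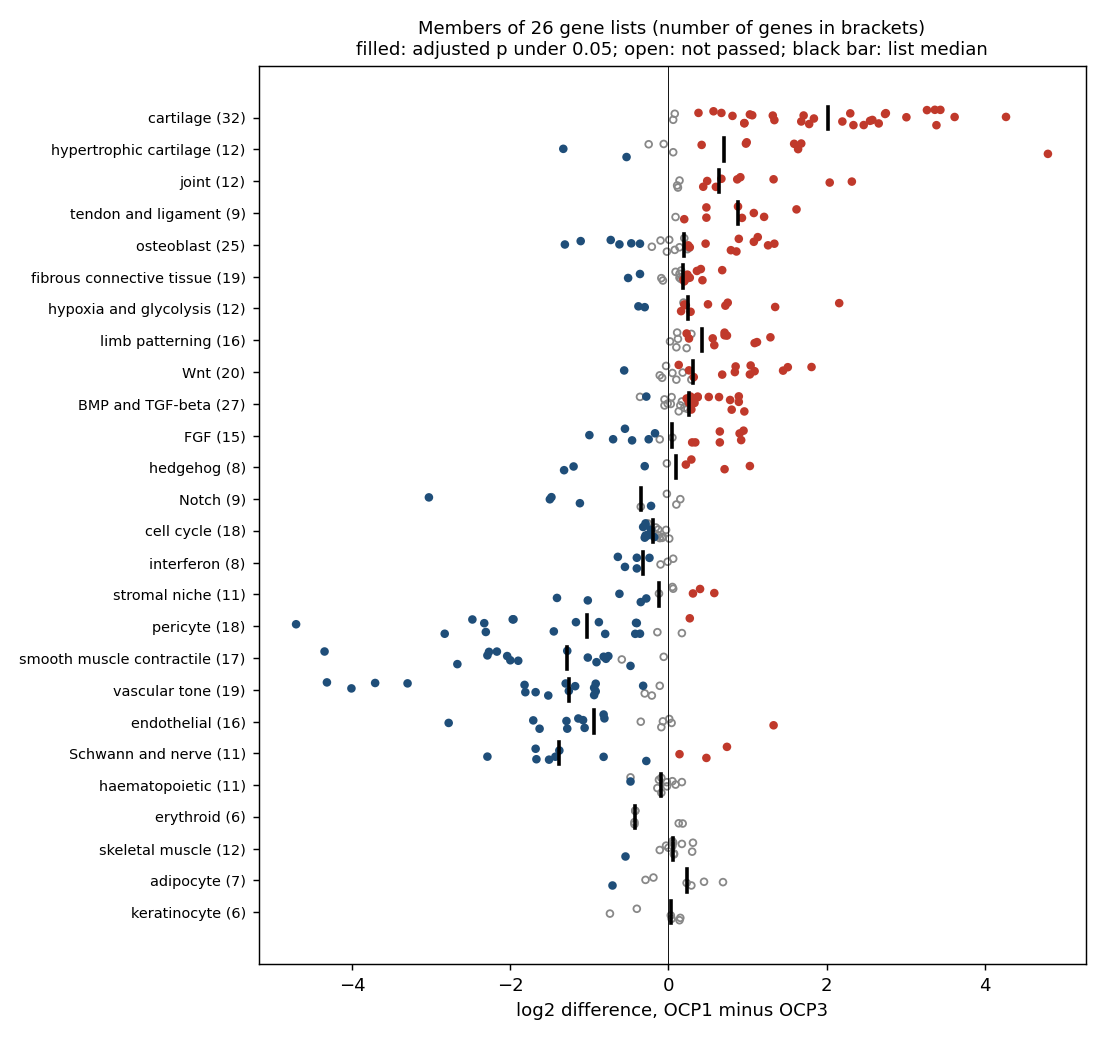
Each point is a gene of the named list, at its log2 difference of OCP1 minus OCP3; filled points passed adjusted p 0.05 and the black bar is the list median. The cartilage median lies at 2.02 and the smooth muscle median at -1.28. Lists were written with earlier results of these data known.

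Hypoxia-induced and glycolytic genes were also higher, 9 of 12, with 2 lower (1 without OCP1 replicate 3). Car9, a carbonic anhydrase and a standard hypoxia target, read 9.69, 9.62 and 9.67 in OCP1, against 7.76, 7.30, 7.53 and 7.43 in OCP3. The groups did not overlap and differed 4.46-fold (adjusted p = 4.17e-09). Bnip3, a mitophagy receptor, was 2.55-fold higher, the glucose transporter gene Slc2a1 1.68-fold and Pdk1, which diverts pyruvate from mitochondria, 1.65-fold. Egln3, a prolyl hydroxylase that is also a hypoxia target, was 1.31-fold lower.

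Limb patterning genes were higher or not called: 10 of 16 were higher, 0 lower. Pitx1, the hindlimb selector, was 2.45-fold higher and Tbx4, its hindlimb partner, 2.17-fold, and the forelimb factor Tbx5 was 1.64-fold higher as well. Among the Hox genes Hoxa11 was 2.12-fold and Hoxd10 1.67-fold higher.

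Of the 20 largest differences on the higher side, 15 belonged to the cartilage or hypertrophic lists, 1 was Nt5e and 4 were in no list. These were Scin, an actin-severing protein, at 7.08-fold, the protease inhibitor gene Serpina3n at 6.21-fold, the lysyl oxidase Loxl4 at 5.28-fold and Fam180a at 5.20-fold. Loxl4 was high in both CD73+ groups: it read 11.00, 10.95 and 11.08 in OCP1 and 8.58, 8.54, 8.75 and 8.57 in OCP3, and the means of OCP4 and OCP2 were 10.74 and 8.85.

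OCP3 was set apart by mural cell genes. Of 18 pericyte genes 15 were lower in OCP1 and 1 higher (median -1.03), of 17 smooth muscle genes 15 were lower and 0 higher (median -1.28), and of 19 genes of vascular tone 16 were lower and 0 higher (median -1.26), against 12.5% of all genes lower. Rgs5, a pericyte regulator of G protein signalling, read 8.74, 8.53 and 8.45 in OCP1, against 13.20, 13.41, 13.07 and 13.44 in OCP3. This was the largest difference on the lower side, 26.1-fold (log2 difference -4.71, SE 0.18, adjusted p = 2.37e-10), and a second Rgs5 probe set gave -5.19.

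The pericyte potassium channel has its pore and regulatory subunits encoded by Kcnj8 and Abcc9, and both were lower in OCP1, 3.92-fold and 5.03-fold. Abcc9 read 10.95, 10.67 and 11.09 in OCP1, against 13.23, 13.28, 13.12 and 13.31 in OCP3, although a dim second probe set of the gene gave only -0.21. Pdgfrb, the receptor through which endothelium recruits pericytes, was 2.73-fold lower and Mcam, an adhesion molecule of vessel walls, 3.88-fold lower. Vtn, vitronectin, was 5.58-fold lower. Cspg4, which encodes the pericyte proteoglycan NG2 and is also made by cartilage, was the exception, 1.21-fold higher in OCP1 (adjusted p = 0.00517), and Tbx18 and Enpep were not called, Enpep with an adjusted p of 0.0992, or 0.0219 without OCP3 replicate 2.

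Contractile genes were lower in OCP1 but uneven among its arrays. Acta2, smooth muscle actin, read 11.34, 12.75 and 11.39 in OCP1, against 14.22, 13.98, 13.94 and 14.32 in OCP3. Replicate 2 was the high array of OCP1 and still lay below all of OCP3. The difference was 4.90-fold (log2 -2.29, adjusted p = 2.65e-05) and -2.76 on the log2 scale without that array. Actg2 read 8.88, 10.97 and 8.53 in OCP1 and 11.34, 11.59, 11.25 and 11.84 in OCP3, a log2 difference of -2.04 with all arrays and -2.80 without replicate 2.

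Myh11, smooth muscle myosin, was 6.37-fold lower and Tagln 4.51-fold lower, with log2 differences of -2.67 and -2.17, or -3.18 and -2.51 without that array. Cnn1, calponin, read 8.59, 9.63 and 8.37 in OCP1 and 9.20, 9.63, 9.39 and 9.61 in OCP3. The groups overlapped through replicate 2, and Cnn1 was not called with all arrays (adjusted p = 0.0932) and called without it (-0.97, adjusted p = 0.00105). Leaving replicate 2 out made 16 of the 17 smooth muscle genes lower in place of 15. The same array was not high for Rgs5, Abcc9 or Gucy1a3. What set it apart was not tested.

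Among regulators of contraction, Fhl5 and Mrvi1 differed without a high value in OCP1 replicate 2. Fhl5, a LIM-domain cofactor of smooth muscle, read 7.34, 6.84 and 6.93 in OCP1, against 11.29, 11.41, 11.23 and 11.61 in OCP3, 20.4-fold lower (adjusted p = 2.32e-10). Myocd, myocardin, the coactivator that switches on contractile genes through the CArG box, was 4.83-fold lower. Mrvi1, through which cGMP kinase dampens calcium release, was 4.01-fold lower with a tight spread, 7.78, 7.75 and 7.77 in OCP1 against 9.77, 9.80, 9.68 and 9.82 in OCP3.

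**Figure D4:**
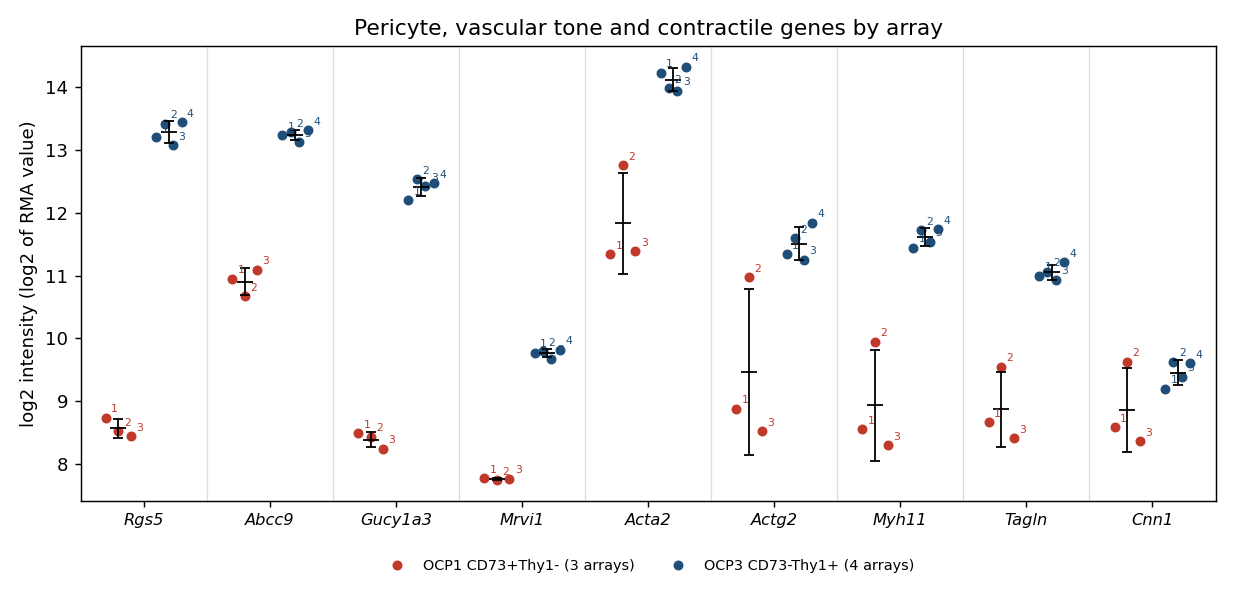
Points are log2 intensities of single arrays, numbered by replicate, for pericyte, vascular tone and contractile genes, with OCP1 left of OCP3 and bars for the mean and SD. OCP1 replicate 2 is the highest OCP1 array for Acta2, Actg2, Myh11, Tagln and Cnn1 and is not the highest for Rgs5, Abcc9 or Gucy1a3.

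The promoter window of Myl9, the myosin light chain of smooth muscle, is shown because it holds a CArG box, the serum response factor motif. Only the strict form was searched: CC, then 6 letters that are each A or T, then GG. Among 12 smooth muscle genes with a window, only Myl9 held that form. Its window lies at chr2:156775214-156775513 on the plus strand, and the box in capitals begins 161 bases before the start.
Myl9: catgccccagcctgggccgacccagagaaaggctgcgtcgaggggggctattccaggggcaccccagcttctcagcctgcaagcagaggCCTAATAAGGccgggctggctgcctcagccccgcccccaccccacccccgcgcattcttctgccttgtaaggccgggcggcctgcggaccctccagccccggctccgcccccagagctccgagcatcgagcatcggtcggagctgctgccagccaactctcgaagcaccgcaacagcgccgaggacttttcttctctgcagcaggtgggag
Myl9 itself read 12.31, 12.47 and 12.33 in OCP1 and 13.57, 13.66, 13.55 and 13.83 in OCP3, 2.43-fold lower. The strict form occurred in windows of 0.781% of the genes higher in OCP1 by 2-fold or more (1 of 128), in 2.90% of those lower (6 of 207), and in 1.74% of all tested genes with a window. The Acta2 window held no strict match in the 300 bases searched, but it held ccctatatgg and ccttgtttgg, which each differ from the strict form at 1 letter. Such near matches were not counted in these shares, so a window without the strict form may still hold a CArG-like element.

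Receptors that set vessel tone were low in OCP1 across several ligands. The soluble guanylate cyclase, the receptor of nitric oxide, has its subunits encoded by Gucy1a3 (now Gucy1a1) and Gucy1b3 (now Gucy1b1). Gucy1a3 read 8.49, 8.44 and 8.25 in OCP1, against 12.20, 12.53, 12.42 and 12.47 in OCP3, and was 16.1-fold lower (adjusted p = 4.08e-12), and Gucy1b3 was 9.83-fold lower. Adra2a, an adrenergic receptor, read 8.06, 8.09 and 7.98 in OCP1 against 11.81, 11.84, 11.54 and 11.81 in OCP3, 13.0-fold lower. Olfr558, an olfactory receptor gene known from vascular smooth muscle, was 19.9-fold lower.

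The endothelin receptor genes Ednra and Ednrb were 2.87-fold and 3.53-fold lower in OCP1, and the cGMP-cleaving Pde5a and the cAMP-cleaving Pde3a 2.39-fold and 2.47-fold lower. The calcium channel gene Cacna1c was not called (log2 difference -0.11, adjusted p = 0.428).

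Markers of other cell types moved along with the mural genes. Of 16 endothelial genes 10 were lower in OCP1 and 1, Erg, was higher (median -0.94), and the list summed to between 23167 and 23732 in OCP1 and between 31012 and 36695 in OCP3. Pecam1 and Cdh5, junction proteins of endothelium, were 1.75-fold and 2.09-fold lower, while Kdr and Cd34 were among the 5 not called. Esam, a junction protein of endothelium and mural cells, was 6.87-fold lower. Of 11 Schwann and nerve genes 8 were lower and 3 higher (median -1.38), with sums of 35451 to 36650 in OCP1 and 40434 to 45710 in OCP3. Sox10, the lineage factor of Schwann cells, was 1.76-fold lower. S100b, which chondrocytes also make, was 1.67-fold higher. The part of these cell types in the mural differences was not tested.

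Few blood, muscle and skin markers passed the test, and the lower counts, of 1 gene in the haematopoietic, skeletal muscle and adipocyte lists, lie near the 12.5% of all genes that were lower. Of 11 haematopoietic genes 1 was lower in OCP1 and 0 higher, with sums of 3875 to 4372 in OCP1 and 3953 to 5416 in OCP3. The 1 gene was Kit, 1.40-fold lower, which lost its call without OCP1 replicate 1 (adjusted p = 0.105), OCP1 replicate 3 (0.0758) or OCP3 replicate 4 (0.0743), and without OCP3 replicate 3 the lower genes numbered 2. None of 6 erythroid or 6 keratinocyte genes was called, although 2 erythroid genes were lower without OCP1 replicate 2, 1 without OCP3 replicate 1, and 1 higher without OCP3 replicate 2, and 1 keratinocyte gene was lower without OCP3 replicate 4. The globin gene Hbb-b1 read 13.41, 13.86 and 12.99 in OCP1 and 13.64, 13.94, 13.71 and 14.08 in OCP3, and was not called (adjusted p = 0.133), although it was without OCP1 replicate 2 (log2 difference -0.65, adjusted p = 0.0254). Of 12 skeletal muscle genes 1 was lower, the embryonic muscle factor gene Pax3, and 0 higher, or 2 higher without OCP3 replicate 4. Of 7 adipocyte genes 0 were higher (1 without OCP1 replicate 1) and 1 was lower, Cd36, which endothelium also expresses, and it lost its call without OCP1 replicate 1 (adjusted p = 0.152), OCP1 replicate 3 (0.081), OCP3 replicate 2 (0.0626) or OCP3 replicate 4 (0.0682).

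Notch pathway genes were low in OCP1. Notch signalling between neighbouring cells switches on the Hey and Hes repressors and shapes the arterial wall. Notch3, the mural cell receptor, was 4.95-fold lower (10.20, 10.38 and 10.32 in OCP1, against 12.54, 12.65, 12.50 and 12.76 in OCP3). Of 9 further pathway genes 5 were lower and 0 higher: the receptor gene Notch1 (2.17-fold), the ligand gene Jag1 (2.80-fold), and the target genes Hey2 (8.16-fold), Hey1 (2.83-fold) and Hes1 (1.16-fold). Hey2 read 8.19, 8.17 and 8.23 in OCP1, against 11.19, 11.20, 11.21 and 11.30 in OCP3, and had the smallest adjusted p of any gene, 1.79e-14. Heyl, in the pericyte list, was 7.09-fold lower, and Nrarp, a target that feeds back on the pathway, 8.63-fold lower with 7.67, 7.39 and 7.41 in OCP1 against 10.44, 10.86, 10.52 and 10.55 in OCP3. Notch2 and Dll4 were among the 4 not called. Hes1 lost its call when OCP1 replicate 2 (adjusted p = 0.114), OCP1 replicate 3 (0.0652), OCP3 replicate 3 (0.0531) or OCP3 replicate 4 (0.0597) was left out.

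The Hey2 window is shown because it holds the core of the motif bound by RBPJ, the DNA-binding partner of Notch, in 2 places. It lies at chr10:30842734-30843033 on the minus strand and is printed in the direction of the gene, with the matches to TGGGAA, on either strand, in capitals, beginning 207 and 3 bases before the start.
Hey2: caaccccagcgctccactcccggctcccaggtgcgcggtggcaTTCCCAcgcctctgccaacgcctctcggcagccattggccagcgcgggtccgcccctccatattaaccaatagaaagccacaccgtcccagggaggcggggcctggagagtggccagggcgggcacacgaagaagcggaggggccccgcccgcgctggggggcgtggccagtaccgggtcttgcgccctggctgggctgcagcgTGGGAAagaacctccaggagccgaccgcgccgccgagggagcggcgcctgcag
This motif was chosen after the values were seen. It occurred in the windows of 37.7% of the genes lower in OCP1 by 2-fold or more (78 of 207), 25.8% of those higher and 27.0% of all tested genes with a window. Hey2 was the only 1 of the 7 Notch list genes with a window to hold it, and the Nrarp and Rgs5 windows held none.

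Hedgehog genes parted by role. Chondrocytes send Ihh, and receiving cells answer by making Ptch1, Hhip and Gli1, which are read as a sign of signalling. Hhip, which traps the ligand, read 10.75, 10.37 and 10.59 in OCP1 and 11.92, 11.59, 11.99 and 11.57 in OCP3. The groups did not overlap and Hhip was 2.29-fold lower (adjusted p = 4.65e-06). Gli1 was 1.28-fold lower and Ptch1 1.23-fold (adjusted p = 0.0144, or 0.0728 without OCP1 replicate 3). The co-receptor genes Cdon and Boc, which hold the ligand at the surface, were 2.04-fold and 1.64-fold higher, and Smo, the signal transducer, 1.23-fold higher. Of the 8 hedgehog genes other than Ihh and Gli1, 4 were higher and 3 lower.

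FGF genes showed the same kind of split. Of 6 ligand genes 4 were higher, Fgf10 by 1.90-fold, Fgf9 by 1.87-fold, Fgf18 by 1.57-fold and Fgf2 by 1.57-fold, and Fgf1 was 1.63-fold lower. Of 6 genes of the feedback that FGF signalling induces, 5 were lower and 1, Etv5, was higher (1.23-fold, adjusted p = 0.00872, or 0.0553 without OCP1 replicate 2). A second probe set of Etv5, nearly as bright, gave a log2 difference of 0.22 and was not called (adjusted p = 0.193 in the fit over all probe sets). Spry4, a Sprouty inhibitor, read 11.38, 11.62 and 11.66 in OCP1 and 12.44, 12.63, 12.43 and 12.73 in OCP3, 2.01-fold lower. Dusp6, an ERK phosphatase, was 1.47-fold lower and Spry1 1.38-fold lower.

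Wnt genes were mostly on the OCP1 side, 12 of 20 higher and 1 lower (median 0.30). Among 9 antagonist genes 6 were higher, led by Frzb (2.84-fold), Wif1 (2.73-fold) and Sfrp2 (2.14-fold), whose proteins bind Wnts, and by Dkk3 (2.05-fold), with Dkk2 and Notum 1.80-fold and 1.79-fold higher. A second probe set of Notum gave a log2 difference of only 0.03. Fzd9, a Wnt receptor gene, was 3.52-fold higher, with 11.16, 11.25 and 10.97 in OCP1 and 9.46, 9.35, 9.20 and 9.23 in OCP3, and Lgr5, the R-spondin receptor gene, 2.04-fold higher. Of 4 target genes Axin2 was 1.20-fold higher (adjusted p = 0.0405), Tcf7 1.47-fold lower and the other two not called. Axin2 kept its call only without OCP3 replicate 1 among arrays left out, with adjusted p of 0.0565 to 0.135 without each of the other 6 and 0.0513 with the 7 arrays fitted alone.

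Of 27 BMP and TGF-beta genes 15 were higher and 1 lower (median 0.26), none by 2-fold, and without OCP1 replicate 2 or 3 or OCP3 replicate 2 or 4 the lower count was 0. The ligand gene Bmp6 was 1.95-fold higher, Gdf10 1.85-fold and Bmp2 1.71-fold, and the antagonist gene Chrd 1.56-fold. Id1, a target of BMP signalling, was 1.74-fold higher.

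**Figure D5:**
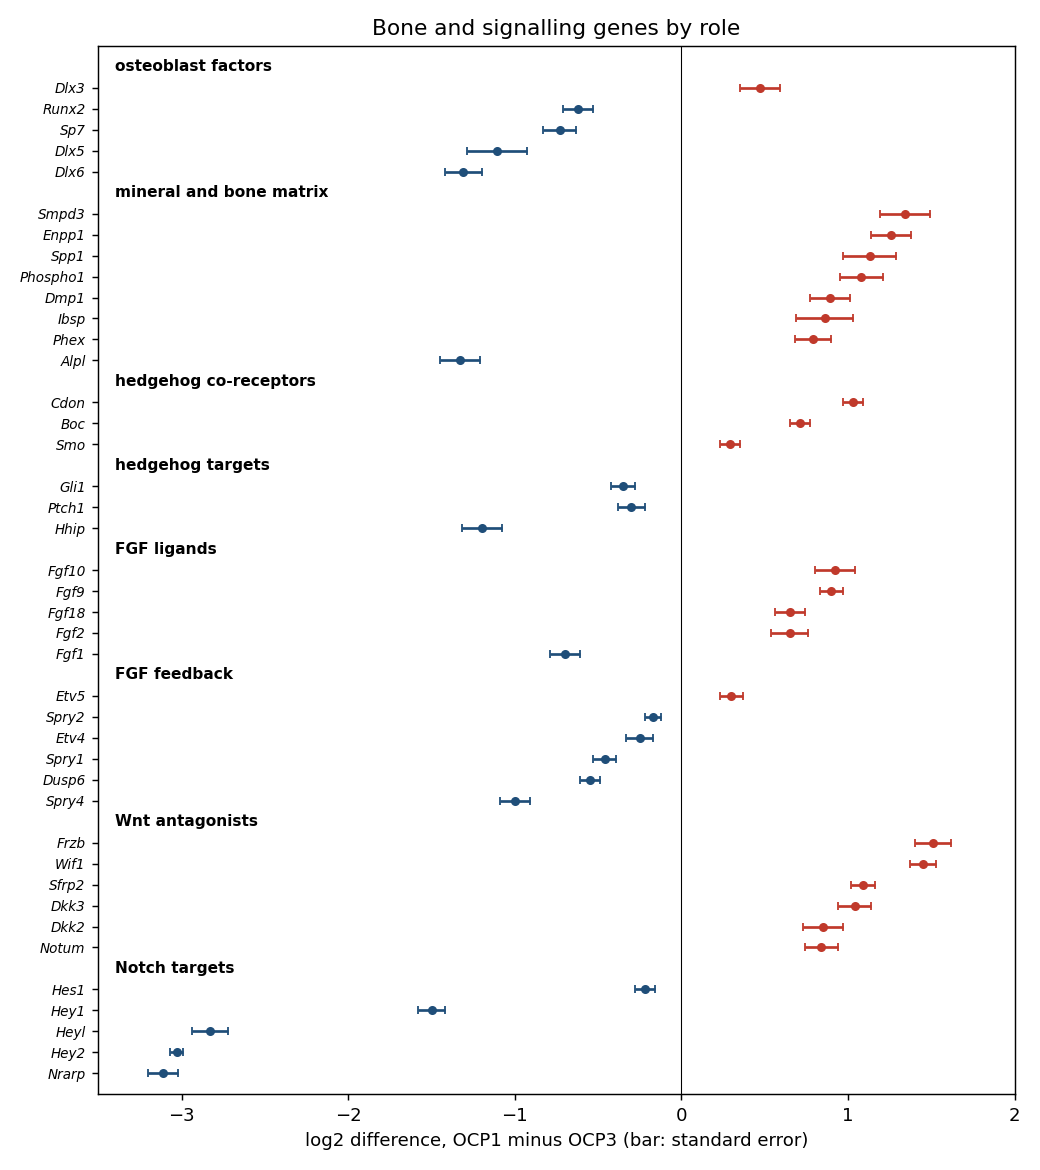
Points are log2 differences of OCP1 minus OCP3 with standard errors, for called genes of bone, hedgehog, FGF, Wnt and Notch roles. Osteoblast factors apart from Dlx3, hedgehog targets, FGF feedback genes apart from Etv5 and the Notch targets lie left of 0, and mineral genes apart from Alpl, co-receptors, FGF ligands apart from Fgf1 and Wnt antagonists lie right of 0.

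Small differences ran through the cell cycle and interferon genes. Of 18 cell cycle genes 9 were lower in OCP1 and 0 higher (median -0.20), none by 2-fold, and Mki67, a marker of dividing cells, was 1.25-fold lower (adjusted p = 0.00134). Of 8 interferon-induced genes 5 were lower and 0 higher (median -0.32), and 3 were lower without OCP1 replicate 1. Of 10 measured genes of the dissociation stress list, which tissue digestion can induce, 4 were higher and 1 lower, and 2 were higher without OCP1 replicate 1 or 3. The immediate early gene Fosb was 1.27-fold higher (adjusted p = 9.86e-04), and Jun was not called (log2 difference 0.04, adjusted p = 0.699).

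Genes of the stromal niche were mixed: of 11, 3 were higher and 5 lower (median -0.12). Nes, an intermediate filament gene of mural and nerve cells, was 2.66-fold lower and Lepr, the leptin receptor of marrow stromal cells, 2.03-fold lower, while the transcription factor gene Foxc1 was 1.49-fold higher. Of 14 matrix proteases and inhibitors 4 were higher and 6 lower (median -0.12), and 3 were lower without OCP1 replicate 1. Mmp9, the gelatinase of osteoclasts and invading vessels, was 4.58-fold lower, with 10.34, 10.20 and 10.12 in OCP1 against 12.50, 12.44, 12.42 and 12.29 in OCP3. The aggrecanase gene Adamts4 was 2.16-fold lower and Timp3, a matrix-bound inhibitor, 1.66-fold lower, and the gelatinase gene Mmp2 was 1.29-fold higher. Of 6 osteoclast genes 2 were higher, the protease gene Ctsk (1.38-fold) and the phosphatase gene Acp5 (1.24-fold), and 0 lower. Of 9 other genes of the adenosine path 2 were higher and 4 lower (median -0.28), none by 2-fold, and 1 was higher without OCP1 replicate 1, OCP1 replicate 2 or OCP3 replicate 1. Entpd2, which breaks down extracellular ATP upstream of CD73, was 1.81-fold lower. Of 3 adenosine receptor genes in this list 1 was lower, Adora2b by 1.21-fold, and 0 were higher. A further adenosine receptor gene, counted with the vascular tone genes, was called lower with a log2 difference of -0.94. Ada, which removes adenosine, was 1.15-fold higher (adjusted p = 0.0132, or 0.0559 with the 7 arrays fitted alone).

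Of the 20 largest differences on the lower side, 7 were in the pericyte, smooth muscle or vascular tone lists, 10 were in no list, and the rest were Thy1, Hey2 and Esam. Il6, a cytokine, was 7.81-fold lower (7.88, 7.84 and 8.24 in OCP1 against 10.84, 10.85, 10.52 and 11.61 in OCP3), and Ccl11, a chemokine, 7.34-fold lower. Cpa1, a carboxypeptidase, was 12.5-fold lower, Mmrn1, multimerin, 9.57-fold and Cyp4b1, a cytochrome, 7.27-fold. Ifi203 was 8.98-fold lower, but it belongs to a family of near-identical genes that share probes, so its identity is uncertain. Rasl12, Zfp663 and Tmc5 were 7.02-fold, 6.68-fold and 6.59-fold lower.

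The other sorted groups placed these differences. They share the fit with OCP1 and OCP3, so their values are given side by side. For the 175 genes at least 2-fold higher in OCP1, the OCP2 mean lay between the OCP1 and OCP3 means for 160, and the OCP4 mean for 94 and below both for 69. On a scale from 0 at OCP3 to 1 at OCP1 the median place was 0.52 for OCP2 and 0.10 for OCP4, so OCP4 sat near OCP3 for most of these genes (nearer to it for 145). Matn1 is an example, with means of 13.50 in OCP1, 9.89 in OCP3, 12.73 in OCP2 and 10.70 in OCP4. Col10a1 had another order, with OCP4 (10.73) above OCP2 (9.48).

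For the 293 genes at least 2-fold lower in OCP1 the OCP2 mean lay between for 248 and the OCP4 mean for 209. Here OCP4 sat near OCP1, with a median place of 0.83 (nearer OCP1 for 232), and OCP2 at 0.63. OCP4 was sorted as Thy1+ like OCP3, and its Gucy1a3 and Rgs5 means were 9.45 and 9.53, against OCP3 means of 12.40 and 13.28. Both other groups lay between OCP1 and OCP3 for 90 of the higher and 182 of the lower genes.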

How the data were processed

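RNA of 14 sorted samples was measured on Mouse Gene ST arrays. Per the submitters' processing notes the arrays were processed with RMA and tested with limma, with versions not given in the sources used here. Deposited values, as the authors made them, are linear intensities, 1 per probe set, and their log2 was taken. The deposited table of the authors' own comparisons holds log2 differences, mean log2 levels and adjusted p-values of OCP4 against the other groups, and it was used for probe set symbols and as a check. The OCP1 minus OCP3 log2 difference derived from it differed from that of the intensities by at most 4.81e-08.

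Of 35556 probe sets 25254 carried a symbol. The 25 symbols turned into dates were left out, the brightest probe set of each symbol was kept, and 21734 genes were fitted (R 4.3.3, limma 3.58.1) with 1 mean per group over all 14 arrays, 10 residual degrees of freedom, two-sided, with Benjamini-Hochberg adjustment over all genes. No filter on dim genes was set. The fit was tested on simulated data. Probe sets of near-identical genes may share probes.

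The groups, gene lists and members were chosen with earlier results of these data known. Named are the sort markers, the 20 genes with the largest difference on each side whose groups do not overlap, and members of each list by size or role. Of 420 list entries 418 matched a symbol, and some are counted here but not reported by name. Alternatives tried were quantile normalization run again, median centring, a filter on the dimmest 25% of genes, the mean of probe sets, identical probe sets left out, eBayes with trend and robust, the 7 arrays alone, array weights, the replicate number as a block and each array left out.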

Additional observations from a re-analysis of the deposited data

Results flagged for a closer look

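In a group of 4 arrays a single array was taken to stand apart where its gap to the nearest other array, as a share of the whole range of the group (the gap share), passed the 95% limit of Dixon's test. Chance alone marks about 1 in 20 groups. Among the 429 listed and leading genes this held in OCP3 for 18 (4.2%), of which 6 are named in the text. Sox9 was high in OCP3 replicate 1 (11.35, against 11.19 to 11.21 in the others, gap share 0.882), and so was Epyc (9.03, against 8.25 to 8.34, gap share 0.880). Foxa3 was low in OCP3 replicate 3 (6.95, against 7.34 to 7.38, gap share 0.909), as was Adra2a (11.54, against 11.81 to 11.84, gap share 0.893), while Id1 was high in that array (11.77, against 11.35 to 11.40, gap share 0.870). Cd9 was low in OCP3 replicate 2 (10.85, against 11.01 to 11.03, gap share 0.875). For all 6 genes the OCP1 and OCP3 arrays did not overlap, and each kept its call and its direction when the array in question was left out. Groups of 3 arrays, such as OCP1, are not tested in this way. Causes were not tested.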

How the results depend on the processing

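Of the 5309 genes called between OCP1 and OCP3, 3437 were called at an adjusted p under 0.01. Across the 9 other planned settings that kept all the arrays compared, 4563 to 5936 genes were called, and leaving out each array in turn gave 3969 to 5548. The genes 2-fold or more apart numbered 450 to 494, against 468, and the called list members 252 to 288, against 275. With the replicate number as a replicate block 4761 genes were called. The labels do not say whether equal numbers mark 1 sort, and the arrays were not paired in the main fit. Same-numbered arrays had deviations from their group means correlated at -0.17, 0.295 and 0.186, against -0.455 to 0.32 for the other pairs. So few arrays cannot settle whether the numbers pair them. Over the 179 genes named in the text, values under these settings kept direction and call in 2827 cases, lost the call in 22 and gained it in 8, and the sign turned in 5. Those 5 were of uncalled genes near 0 with an array left out: over the arrays left out Bglap ran from -0.15 to 0.05, Otor from -0.05 to 0.15 and Mmp13 from -0.14 to 0.01. With 3 and 4 arrays, their number limits the precision, and p-values measure the spread between sorted samples, whose litters are not given. Genes at the low end of the intensities carry no detection call here. Arrays of bulk RNA cannot tell a shift in cell composition from a change per cell. Causes were not tested.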

Other observations

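Gene families were counted by symbol alone after the values had been seen, beside 11.9% of all genes higher and 12.5% lower, and some of their members are in the lists above. Of 42 collagen chain genes 23 were higher and 4 lower in OCP1, which counts the cartilage collagens again. Of 11 laminin chain genes, which build basement membranes, 0 were higher and 8 lower, led by Lama3 (1.79-fold) and Lama2 (1.53-fold). Among 25 integrin chain genes 4 were higher, near the share of all genes, and 10 lower: Itga7 and Itga1 were 5.79-fold and 5.56-fold lower in OCP1, and Itga2, a collagen receptor gene, was 2.75-fold higher. Itga1, also a collagen receptor gene, read 10.41, 10.22 and 10.30 in OCP1, against 12.76, 12.83, 12.69 and 12.86 in OCP3 (adjusted p = 4.55e-12). The arterial connexin genes Gja5 and Gja4 were 4.02-fold and 3.91-fold lower.

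Of 34 chemokine genes 7 were higher and 8 lower, among them Ccl2 (5.66-fold lower) and Cxcl9 (2.23-fold higher). Of 22 phosphodiesterase genes, Pde3a and Pde5a among them, 3 were higher, near the share of all genes, and 11 lower. Olfactory receptor genes, most of which limb cells should not use, serve as a background: of 1119 only 3.75% were called, 36 higher and 6 lower, and Olfr558 and Olfr78 were the ones more than 2-fold lower, Olfr78 by 3.33-fold.

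Probe sets that name no tested gene were fitted with all 35556. Of these 10328 probe sets 312 (3.02%) were called, 3 higher and 13 lower in OCP1 by 2-fold or more.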
